A study of Mus musculus with 18 samples.

Results

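The 9 genes described here encode tumour necrosis factor (TNF), proteins that gather at the membrane when it binds its receptors, and a caspase inhibitor. They are the ligand Tnf, the receptors Tnfrsf1a and Tnfrsf1b, the adaptors Tradd, Traf1 and Traf2, and the inhibitor of apoptosis genes Birc2, Birc3 and Xiap. They were taken by name as the membrane-proximal TNF receptor complex, with earlier results of these data known, and make up 9 of the 50686 gene identifiers counted. All 9 were among the 13447 genes that passed the filter on low counts.

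Messenger RNA was counted in primary microglia, the resident macrophages of the brain, grown from forebrains of C57BL/6 mice taken on postnatal day 2. The mixed cultures were kept for 7 days before and 7 days after a change of medium, and the microglia were then shaken off and cultured further. No TNF or other stimulus is named in the labels, so the levels are those of unstimulated cultures as far as the labels say. Each of 6 genotypes had 3 libraries. The genotypes are wild type (WT); Tbk1+/-, here Tbk1het; Tak1ΔM/+, here Tak1het; Tbk1+/-;Tak1ΔM/+, here Tbk1het Tak1het; Tbk1+/-;Ripk1D138N/D138N, here Tbk1het Ripk1hom; and Tbk1+/-;Tak1ΔM/+;Ripk1D138N/+, here Tbk1het Tak1het Ripk1het. All genotypes except WT and Tak1het are labelled Tbk1+/-. The labels do not say how the Tak1ΔM allele was made or in which cells it is active. Nor do they tie a genotype's libraries to different animals or flasks, so p-values measure only the spread between these libraries, which may be technical. The series title concerns restraint of RIPK1-driven apoptosis and inflammation by TBK1, and the comparisons ask how levels differ with each allele.

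TNF is made by macrophages and microglia as a membrane protein and shed by a protease. Binding to TNFR1 recruits TRADD and the kinase RIPK1, and TRAF2 then brings in cIAP1 and cIAP2, ubiquitin ligases that act on RIPK1. The kinases TAK1, IKK and TBK1 join the complex through ubiquitin chains. TAK1 and IKK switch on NF-kB, whose targets include Tnf, Traf1 and Birc3. The kinases also phosphorylate RIPK1 and so hold back its role in cell death. Ripk1 D138N is a kinase-dead allele.

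The sequence upstream of a gene's start is where such factors bind, so 3 of these stretches are shown. The first is that of Tnf, the only member called in the test across genotypes. The others are those of Tnfrsf1b, the member with the highest level per length of exon, and of Traf1, the member with the lowest. Each line holds the 250 bases before the RefSeq start site (build GRCm38.p6), read 5′ to 3′ on the strand of the gene. Capitals mark matches to the searched motifs.
Tnf: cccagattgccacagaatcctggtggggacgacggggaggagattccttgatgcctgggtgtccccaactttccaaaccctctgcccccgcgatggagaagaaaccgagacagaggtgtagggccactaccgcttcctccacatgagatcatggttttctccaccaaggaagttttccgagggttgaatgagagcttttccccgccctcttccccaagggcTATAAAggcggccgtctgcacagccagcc
Tnfrsf1b: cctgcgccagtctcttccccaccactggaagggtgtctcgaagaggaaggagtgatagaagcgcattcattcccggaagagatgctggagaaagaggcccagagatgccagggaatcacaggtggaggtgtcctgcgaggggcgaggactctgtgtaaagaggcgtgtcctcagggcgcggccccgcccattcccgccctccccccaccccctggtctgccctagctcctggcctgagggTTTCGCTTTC
Traf1: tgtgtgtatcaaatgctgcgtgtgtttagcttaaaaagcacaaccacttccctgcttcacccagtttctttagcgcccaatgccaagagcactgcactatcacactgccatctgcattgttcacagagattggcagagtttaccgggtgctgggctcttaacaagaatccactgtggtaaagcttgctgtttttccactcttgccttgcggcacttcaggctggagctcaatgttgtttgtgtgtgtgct
The Tnf stretch is chr17:35202008-35202257, the Tnfrsf1b stretch chr4:145246871-145247120 and the Traf1 stretch chr2:34961773-34962022, all on the minus strand. The search covered 4 motifs on both strands, none of which overlapped another in these stretches: the kappa-B consensus, TATAAA, the core of an interferon-stimulated response element (GAAA, any 2 bases, GAAA) and TGANTCA (the AP-1 consensus). Tnf held TATAAA on its own strand, beginning 29 bases before the start site. A match anywhere in the 250 bases, on either strand, was held by 12.4% of the 32851 upstream stretches in the RefSeq table. Tnfrsf1b held the interferon response core on the opposite strand, and 2.98% of all stretches held a match on either strand. Traf1 held none of them. Of the 9 genes, 8 had a row in the table, and none of these 8 held the kappa-B consensus in this window, against 7.25% of all stretches. TGANTCA was likewise in none of them, against 6.75%. With 8 genes, 250 bases and only full matches counted, the search does not tell whether these genes have such sites elsewhere or in another form. CG dinucleotides numbered 10 upstream of Tnf, 12 upstream of Tnfrsf1b and 4 upstream of Traf1, with a median of 6 over all stretches.

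Libraries held between 8016559 and 22989116 counts and between 15548 and 17433 genes with a count. All 12 microglial markers had counts in every genotype, with summed levels from 8090 to 10200 CPM, the count relative to the library's scaled total. Markers of other cells were low by comparison, with sums of 21.8 to 66.1 CPM for 10 astrocyte genes and 0.772 to 20.7 CPM for 10 neuronal genes, 119 to 171 CPM for 10 oligodendrocyte lineage genes, 4.58 to 63.1 CPM for 12 fibroblast, mural and endothelial genes and 0.448 to 4.39 CPM for 10 genes of other blood cells. Border macrophage and monocyte genes, some of which microglia in culture also express, summed to between 937 and 1770 CPM. Mitochondrially encoded protein-coding genes took under 1% of counts in 8 libraries and from 1.05% to 2.20% in the other 10. All 3 Tbk1het Tak1het libraries were in the first set and all 3 Tbk1het libraries in the second. Libraries also differed in the summed level of 4 Y-linked genes, which was at most 2.78 CPM in Tak1het, from 62.3 to 206.9 CPM in Tbk1het, from 68.1 to 89.95 CPM in Tbk1het Tak1het, and at 0 in 1 to 2 libraries of each other genotype.

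The targeted gene Tbk1 matched only part of the labels. It was at 106, 104 and 149 CPM in WT, at 50.5, 65.6 and 57.1 CPM in Tbk1het, and at 55.1, 56.4 and 66.0 CPM in Tbk1het Tak1het. In the libraries labelled Tbk1het Tak1het Ripk1het it was at 123, 107 and 115 CPM, and in those labelled Tbk1het Ripk1hom at 130, 54.9 and 131 CPM. Thus 5 libraries labelled Tbk1+/- had Tbk1 at about the WT level, and every direction below that rests on these 2 genotypes carries that limit. Map3k7, which encodes TAK1, was at 8.76 ± 1.33 CPM (SD, n = 3) in Tak1het against 13.5 ± 4.94 in WT, a difference that did not pass the test (edgeR adjusted p = 0.561); which part of the gene Tak1ΔM lacks is not in the labels, so this level does not check them.

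Per length of exon, the receptors were the most abundant members and Traf1 the least. Mean levels over the 18 libraries, in CPM per kilobase of exon, were 78.3 for Tnfrsf1b, 53.6 for Tnfrsf1a, 21.9 for Tradd, 12.0 for Tnf, 6.46 for Xiap, 5.45 for Birc3, 5.13 for Traf2, 4.25 for Birc2 and 0.116 for Traf1. The middle of this order was not separated: the ranges over libraries of Xiap (4.99 to 8.17), Birc3 (3.06 to 8.87), Traf2 (3.55 to 6.48) and Birc2 (2.25 to 7.43) overlapped. Tnf spanned 2.39 to 22.3, the widest range in CPM per kilobase relative to its mean of any member but Traf1. With oligo(dT) priming, coverage along a gene need not be even, so these levels are approximate.

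**Figure D1:**
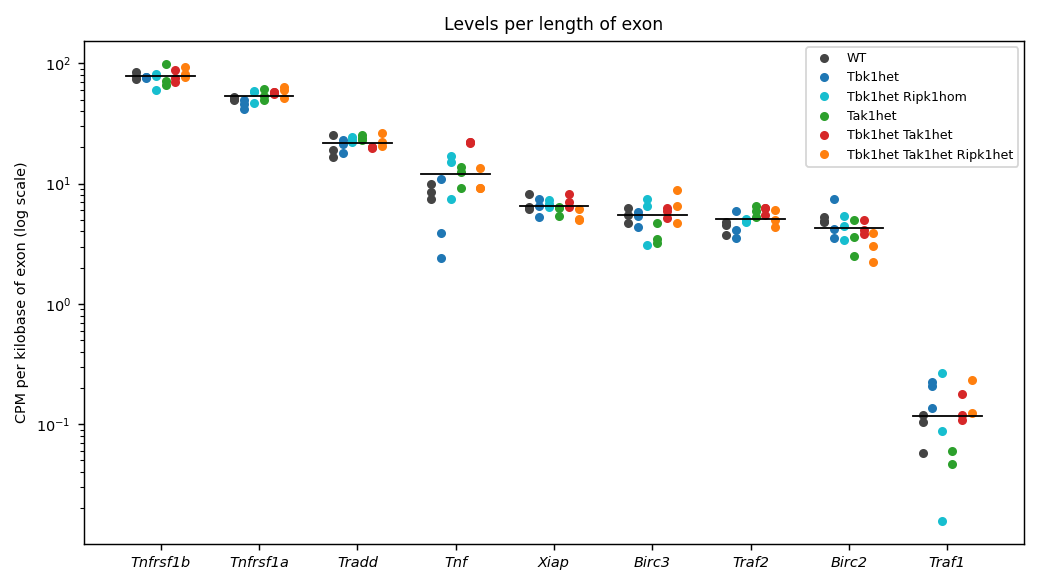
Level of each of the 9 genes in CPM per kilobase of exon (log axis), 1 point per library, coloured by genotype, with a black line at the mean of the 18 libraries. The 2 libraries with no Traf1 counts cannot be drawn on the log axis but are part of its mean of 0.116, and the points of Tnf spread from 2.39 to 22.3.

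Tnf was the only 1 of 9 members called in the test across the 6 genotypes, where 7.18% of all genes were called. The call was close to the threshold, and the mean of Tnf was highest in Tbk1het Tak1het. Tnf (ENSMUSG00000024401, chr17:35199381-35202007, minus strand) had 14.0, 12.3 and 16.3 CPM in the 3 WT libraries. It had 6.41, 17.8 and 3.91 CPM in Tbk1het and 20.5, 15.1 and 22.6 CPM in Tak1het. It had 35.6, 36.5 and 36.5 CPM in Tbk1het Tak1het. All 3 libraries of Tbk1het Tak1het lay above every other library, and Tbk1het replicate 2 stood apart from the other 2 libraries of its genotype. With Ripk1 D138N, Tnf had 28.0, 12.2 and 24.7 CPM in Tbk1het Ripk1hom and 22.0, 15 and 15 CPM in Tbk1het Tak1het Ripk1het.

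From lowest to highest mean the order of Tnf was Tbk1het (9.36 ± 7.38 CPM, SD, n = 3), WT (14.2 ± 2.03), Tbk1het Tak1het Ripk1het (17.3 ± 4.05), Tak1het (19.4 ± 3.84), Tbk1het Ripk1hom (21.6 ± 8.32) and Tbk1het Tak1het (36.2 ± 0.548). Neighbours in this order overlapped except at the last step, where the highest Tbk1het Ripk1hom library, at 28.0 CPM, was below the lowest Tbk1het Tak1het library, at 35.6 CPM. In these bulk samples, fewer cells expressing a gene and less of its RNA in each cell cannot be told apart.

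**Figure D2:**
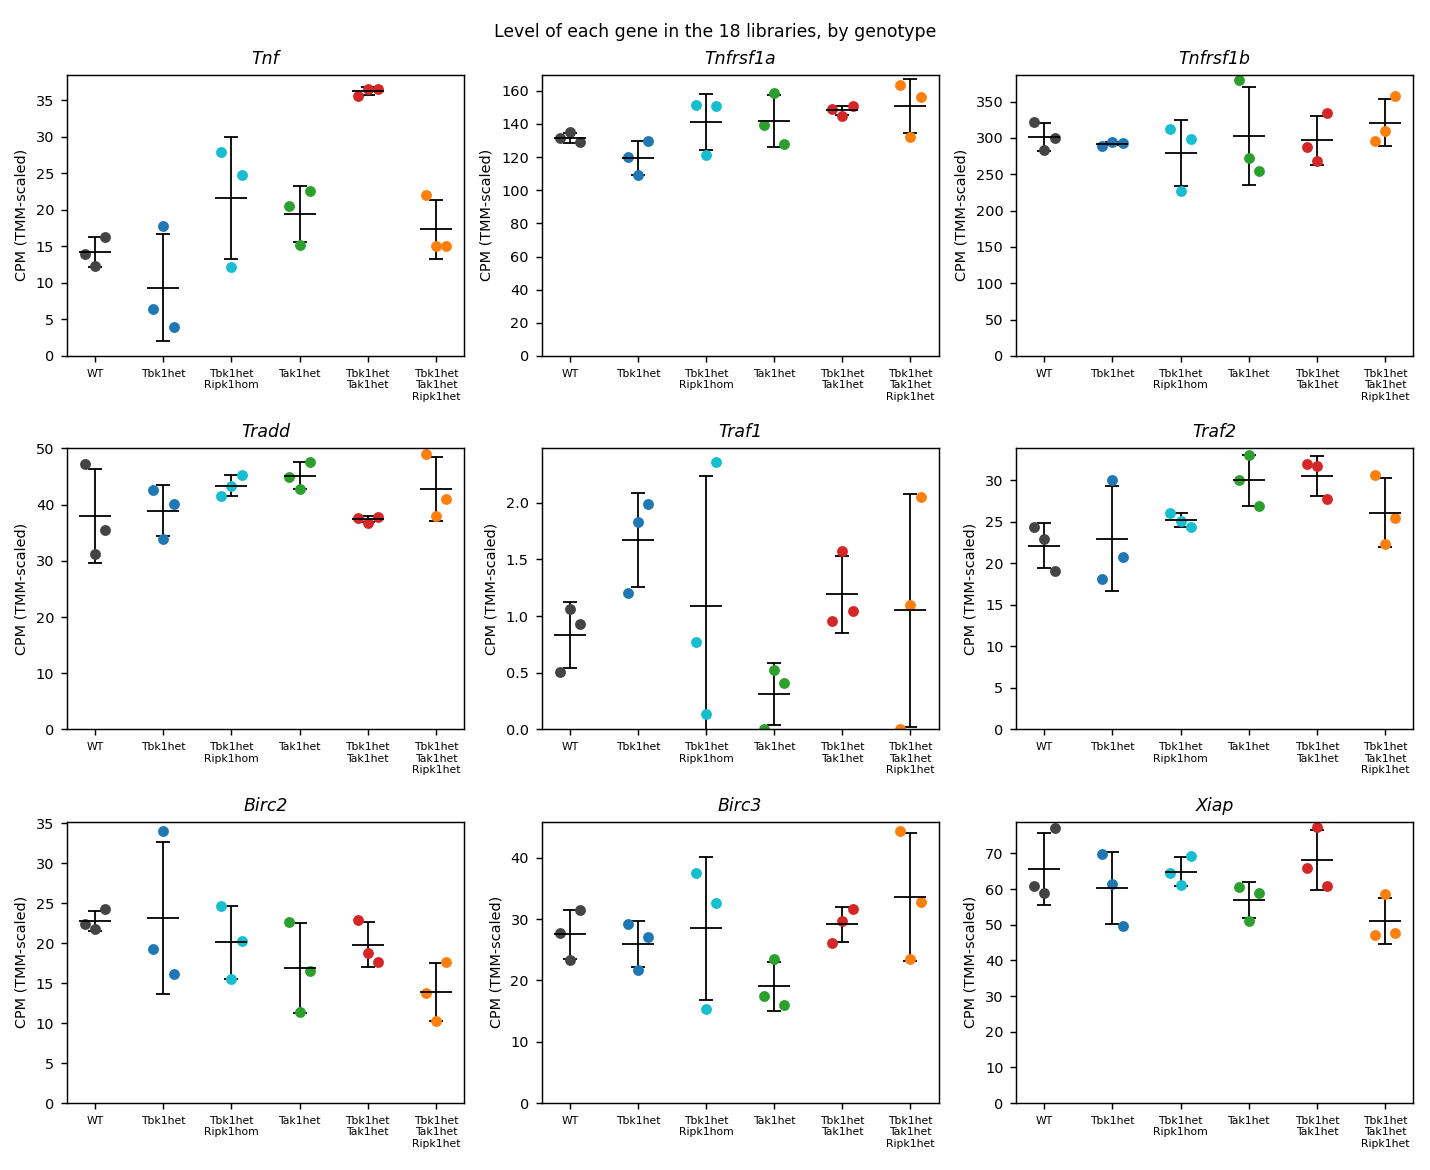
Level of each of the 9 genes by genotype, in CPM, with 1 point per library and black bars for the mean ± SD of 3 libraries, on axes that start at 0. Tnf in Tbk1het Tak1het lies between 35.6 and 36.5 CPM, above all other libraries, and Tnfrsf1b spreads most within Tak1het, from 254.5 to 379.7 CPM.

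In the test across all 6 genotypes, Tnf was 1 of 9 members called (edgeR adjusted p = 0.0467), where 7.18% of all genes tested were called. The call was close to the threshold. It was kept by DESeq2 (adjusted p = 0.000908) and limma-voom (0.0148) and was lost when the replicate number was a block (0.0777), when the mitochondrial share was a covariate (0.537) and when any 1 library was left out other than Tbk1het replicate 2, Tbk1het Ripk1hom replicate 2 or Tbk1het Tak1het Ripk1het replicate 1 (0.00101 to 0.136 over the 18 fits).

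The clearest difference was between Tbk1het Tak1het and Tbk1het. Tnf rose 3.87-fold in mean CPM, with a log2 fold change of 1.95 (SE 0.405, edgeR adjusted p = 0.00402), and it was the only 1 of 9 members called, where 14.7% of all genes were called. The call was made in 15 of 16 alternative fits, with log2 fold changes from 1.18 to 2.78 and adjusted p from 2.94e-11 to 0.282; the highest fold change was without Tbk1het replicate 2 (adjusted p = 5.32e-05). It was lost with the mitochondrial share as a covariate, where the log2 fold change was 1.18 (adjusted p = 0.282). The mitochondrial share was from 0.367% to 0.512% in Tbk1het Tak1het and from 1.82% to 2.20% in Tbk1het, with no library of either genotype in the range of the other, so genotype and this share cannot be told apart here. The sum of 10 border macrophage and monocyte genes was also lower, at 1250 to 1290 CPM in Tbk1het Tak1het against 1540 to 1770 CPM in Tbk1het. The genes did not all move alike. Of 8 tested, 2 were called, Lyve1 and F13a1, and both fell (log2 fold changes of -6.34 and -1.85). The median log2 fold change of the 8 was -0.765, and 2 were above 0. Mean Ms4a7 was higher in Tbk1het Tak1het, at 693.7 CPM against 497.8 CPM in Tbk1het, where it spanned 250.5 to 888.6 CPM. Mean Cd163 was 0.869 CPM against 0.790 CPM, and Ly6c2 was at 0 in both genotypes. Lyve1 spanned 0.571 to 155.9 CPM within Tbk1het and 0.106 to 2.37 CPM in Tbk1het Tak1het. F13a1 spanned 81.5 to 472 CPM within Tbk1het. The lowest Tbk1het library for both genes was replicate 2, which had the highest Tnf of that genotype. Fits without replicate 2, here and below, thus keep only the Tbk1het libraries with more Lyve1 and F13a1, and what this adds to their Tnf values was not tested. The 10 oligodendrocyte lineage genes summed to 168 to 171 CPM in Tbk1het Tak1het against 119 to 145 CPM in Tbk1het. Of the 12 microglial markers, Itgam, P2ry12 and Cx3cr1 fell and Spi1 rose, and their sum was 8620 to 9340 CPM against 8870 to 10100 CPM. The part of these markers in the Tnf result was not tested.

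Against WT, mean Tnf in Tbk1het Tak1het was 2.55-fold higher (log2 fold change 1.35, SE 0.397), which missed the threshold (edgeR adjusted p = 0.0513). The groups did not overlap, with 35.6 CPM or more against 16.3 or less, as was so for 29.6% of all genes tested. DESeq2 (adjusted p = 0.00941), limma-voom (0.0215) and a fit on the 6 libraries of these genotypes alone (0.00128) called it. Over 17 alternatives the log2 fold change lay between 0.868 and 1.53 and the adjusted p between 1.91e-05 and 0.352. The fit with the mitochondrial covariate gave the lowest fold change. Among the 8 libraries with a share under 1%, which hold 1 WT library, it was 1.11 (adjusted p = 0.015), on the assumption that the lone WT library varies like the others. Among the marker genes, Itgam fell from 82.2 ± 13.9 to 42.8 ± 1.32 CPM (SD, n = 3) and S100a8 from 3.02 ± 0.854 to 0.599 ± 0.459 CPM against WT. Astrocyte genes summed to 21.8 to 30 CPM against 44.6 to 56.1 in WT, and oligodendrocyte lineage genes to 168 to 171 against 137 to 153. Sums of fibroblast, mural and endothelial genes and of other blood cells also did not overlap. Those of microglia, neurons and border macrophages overlapped. The astrocyte genes did not differ as a set: of 7 tested, 0 were called, 3 had a log2 fold change above 0 and the median was -0.0477. Mean Aldh1l1 was 11.2 CPM against 22.9 in WT and Aldoc 8.01 against 18.65. Gfap was at 1.32 CPM against 1.35 and Slc1a3 at 3.77 against 3.74. The part of these markers in the Tnf difference was not tested. edgeR called 0 of 9 members in this comparison, with 2 (Tnf and Traf2) at an unadjusted p under 0.05, and 6.07% of all genes.

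Each single heterozygote differed less from WT, and in neither was a member called. In Tbk1het against WT the Tnf log2 fold change was -0.597 (SE 0.399, edgeR adjusted p = 0.658). Without Tbk1het replicate 2, the library with 17.8 CPM, it was -1.44 (adjusted p = 0.0241), and over 17 alternatives the adjusted p ranged from 0.0241 to 0.938. edgeR, DESeq2 and limma-voom each called 0 of 9 members here, and 0 had an unadjusted p under 0.05, where edgeR called 0.0521% of all genes. In Tak1het against WT, Tnf had a log2 fold change of 0.45 (adjusted p = 0.785). All 3 tools again called 0 of 9, with 1 at an unadjusted p under 0.05, where edgeR called 0.0149% of all genes. Both comparisons share the WT libraries.

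Whether both alleles together gave more than the sum of their separate differences was asked with an interaction term. For Tnf it was 1.498 (SE 0.558, edgeR adjusted p = 0.184), which did not pass. The 3 tools each called 0 of 9 members, 1 (Tnf) at an unadjusted p under 0.05, and edgeR called 1.75% of all genes. Without Tbk1het replicate 2 the term was 2.34 (adjusted p = 0.00426), and over 22 alternatives the adjusted p ranged from 0.00269 to 0.774. In Tbk1het Tak1het against Tak1het, Tnf was 1.87-fold the Tak1het mean, with a log2 fold change of 0.90 (SE 0.391, adjusted p = 0.26). Y-linked expression separates these genotypes completely, so it and genotype cannot be told apart here, and with it as a covariate edgeR called Birc3 and not Tnf (1.34, adjusted p = 0.112). No overlap was seen between these genotypes for 5 members, Tnf, Tradd, Traf1, Birc3 and Xiap, nor for 24.6% of all genes. All 3 tools called 0 of 9 members, 2 at an unadjusted p under 0.05, and edgeR called 2.79% of all genes.

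The kinase-dead Ripk1 alleles went with opposite differences of Tnf in the 2 backgrounds, neither of which was called. A limit is that 5 of these 6 libraries had Tbk1 near the WT level. In Tbk1het Ripk1hom against Tbk1het the log2 fold change of Tnf was 1.21 (SE 0.399, edgeR adjusted p = 0.161). The Tbk1het Ripk1hom libraries with 28.0 and 24.7 CPM were those with a mitochondrial share under 1% and with Tbk1 near the WT level. The third, with 12.2 CPM, a share of 1.57% and Tbk1 at 54.9 CPM, was within the Tbk1het range. In a fit of the 10 libraries with a share over 1%, which leaves only this 1 library of Tbk1het Ripk1hom and takes its spread from the other groups, the log2 fold change was 0.38 (adjusted p = 0.922). Without Tbk1het replicate 2 it was 2.03 (adjusted p = 0.00233), and over 18 alternatives the adjusted p ranged from 0.000512 to 0.922. edgeR, DESeq2 and limma-voom called 0 of 9 members, 1 at an unadjusted p under 0.05, and edgeR called 0.521% of all genes.

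In Tbk1het Tak1het Ripk1het against Tbk1het Tak1het, Tnf was at 0.478 of the Tbk1het Tak1het mean, a log2 fold change of -1.06 (SE 0.393, edgeR adjusted p = 0.184). The groups did not overlap, nor did they for 24.2% of all genes. Among libraries with a mitochondrial share under 1%, where 22.0 CPM in 1 library stood against 35.6 to 36.5 CPM in 3, the log2 fold change was -0.73 (adjusted p = 0.129), with the spread of the lone library taken from the other groups. A fit on only these 6 libraries called it (adjusted p = 0.0144), and over 17 alternatives the adjusted p ranged from 0.00183 to 0.419. All 3 tools called 0 of 9 members, 2 (Tnf and Xiap) at an unadjusted p under 0.05, and edgeR called 2.45% of all genes.

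The difference between these 2 comparisons, added after the data were seen, was 2.27 for Tnf (log2, SE 0.56, edgeR adjusted p = 0.0325), the only 1 of 9 members called, where 3.61% of all genes were called. It compares 2 D138N alleles in one background with 1 in the other. The call was made in 10 of 22 alternatives, with adjusted p from 7.46e-08 to 0.463, and was lost with the mitochondrial share as a covariate (1.41, adjusted p = 0.463). Without Tbk1het replicate 2 the difference was 3.12 (adjusted p = 0.000367). Against WT, Tnf differed by 0.61 (adjusted p = 0.948) in Tbk1het Ripk1hom and by 0.29 (adjusted p = 0.944) in Tbk1het Tak1het Ripk1het. The first of these turned to -0.22 without the libraries whose Tbk1 was near the WT level and to -0.11 among libraries with a mitochondrial share over 1%, and both settings leave the same single Tbk1het Ripk1hom library, replicate 2. edgeR called 0 of 9 members and 0.00% of all genes in Tbk1het Ripk1hom against WT, with 0 members at an unadjusted p under 0.05. It called 0 of 9 members and 0.00% of all genes in Tbk1het Tak1het Ripk1het against WT, with 2 (Birc2 and Xiap) at an unadjusted p under 0.05. DESeq2 and limma-voom called no member in either.

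**Figure D3:**
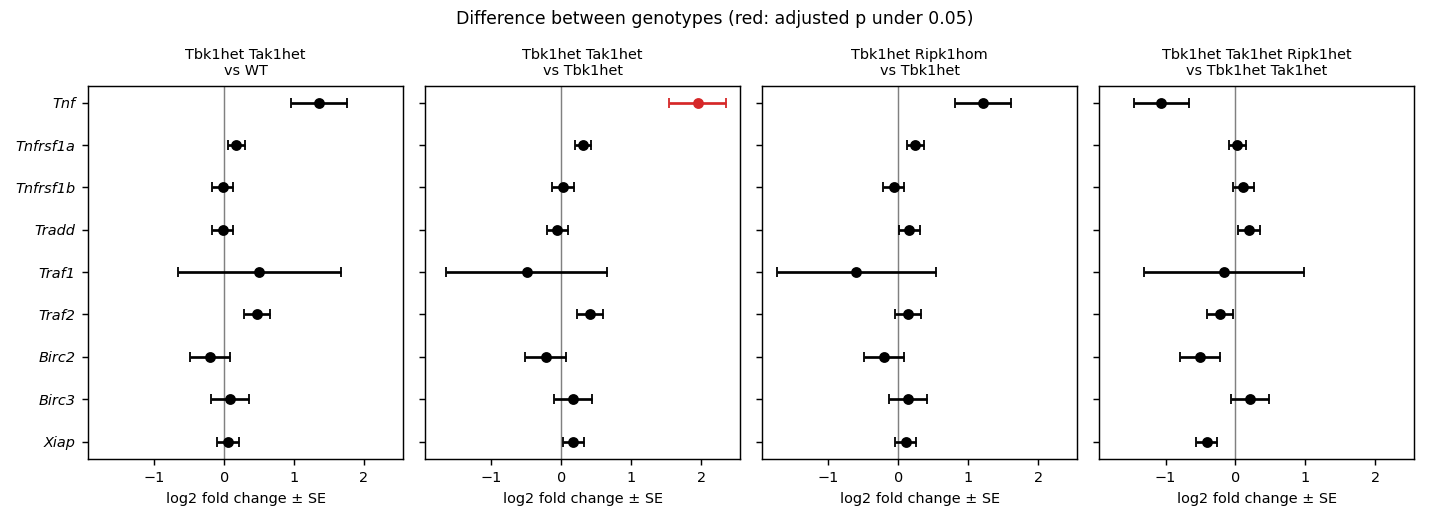
Log2 fold change ± SE from edgeR for each of the 9 genes in 4 comparisons between genotypes, with called genes in red. Tnf in Tbk1het Tak1het against Tbk1het, at 1.95, is the only red point, and the bars of Traf1 are the widest.

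Across all 18 libraries, Tnf was higher where the mitochondrial share was low. In the 8 libraries with a share under 1% it ranged from 16.3 to 36.5 CPM with a median of 26.4, and in the 10 others from 3.91 to 22.6 CPM with a median of 14.5. Both sets overlap, and the highest library of the second set was Tak1het replicate 3. Tnfrsf1a had medians of 149.8 and 130.4 CPM in these sets and Birc3 of 31.6 and 23.6 CPM, whereas Tnfrsf1b had 299 and 291 CPM. The part of this share in the genotype differences was not tested beyond the fits given.

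**Figure D4:**
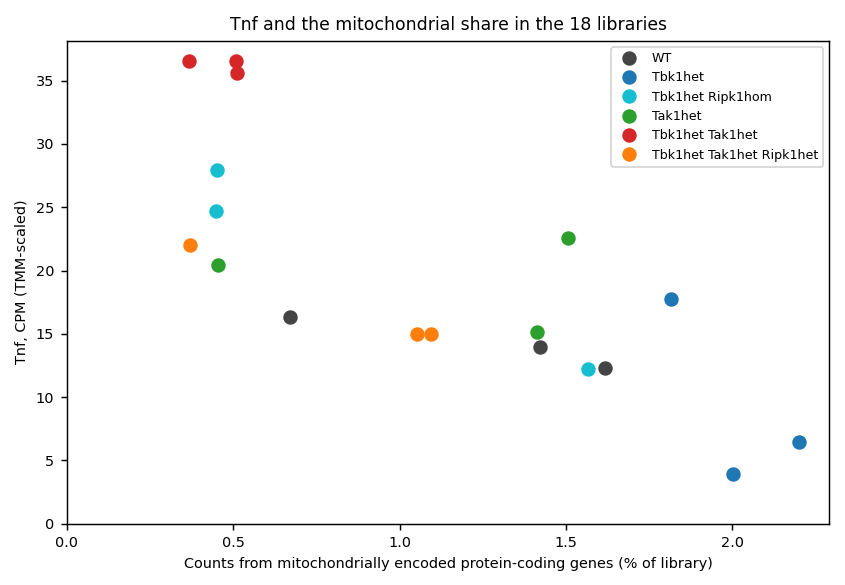
Tnf in CPM against the share of counts from mitochondrially encoded protein-coding genes, 1 point per library, coloured by genotype. The 3 Tbk1het Tak1het points lie at 35.6 to 36.5 CPM with shares of 0.367% to 0.512%, and the 3 Tbk1het points lie at shares of 1.82% to 2.20%.

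Neither receptor gene was called in any comparison by edgeR in the TMM-scaled fit of all 18 libraries without covariates. Tnfrsf1a (ENSMUSG00000030341, chr6:125349362-125362484, plus strand) encodes TNFR1, the death-domain receptor present on most cells. Its levels ran from 109 CPM in Tbk1het replicate 2 to 163 CPM in Tbk1het Tak1het Ripk1het replicate 1, and genotype means from 119.5 ± 10.3 CPM (SD, n = 3) in Tbk1het to 150.7 ± 16.3 CPM in Tbk1het Tak1het Ripk1het. Its 3 libraries of Tbk1het Tak1het, at 149, 145 and 151 CPM, were above all of WT (131, 135 and 129) and of Tbk1het (120, 109 and 130). Of all genes, 29.6% did not overlap in the first of these comparisons and 33.6% in the second. In Tbk1het Tak1het against Tbk1het the log2 fold change was 0.31 (SE 0.12, edgeR adjusted p = 0.0953), which did not pass. Scaling by total counts alone gave calls there for Tnfrsf1a and Traf2 as well as Tnf, a scaling that shifts the median of all genes by 0.24 in that comparison.

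Tnfrsf1b (ENSMUSG00000028599, chr4:145213463-145246870, minus strand) encodes TNFR2, a receptor without a death domain found mainly on immune cells. It ranged from 227 to 380 CPM, and genotype means from 279 ± 46.0 to 321 ± 32.2 CPM (SD, n = 3). Its log2 fold changes over the 9 comparisons between genotypes lay between -0.11 and 0.11 (SE 0.151, edgeR adjusted p 0.794 or more), and its libraries overlapped in every one. In each of the 18 libraries Tnfrsf1b was above Tnfrsf1a per kilobase of exon, by a ratio of 1.17 to 1.85. The ratio was from 1.27 to 1.40 in Tbk1het Ripk1hom, narrowly below every WT library (1.43 to 1.66), and the other 4 genotypes overlapped WT. Differences of this receptor ratio between genotypes were not tested.

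Of the adaptors, Tradd (ENSMUSG00000031887, chr8:105258286-105264609, minus strand), the death-domain protein that bridges TNFR1 to TRAF2, ranged from 31.2 to 49.1 CPM. Its 3 Tbk1het Tak1het libraries, at 37.7, 36.8 and 37.8 CPM, were below all 3 of Tak1het, at 45.0, 42.8 and 47.6 CPM. Of all genes, 24.6% did not overlap between these genotypes. No difference of Tradd passed the test, with log2 fold changes between -0.27 and 0.25 (edgeR adjusted p 0.42 or more).

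Traf2 (ENSMUSG00000026942, chr2:25517982-25546940, minus strand), the adaptor that recruits both cIAPs, had 24.4, 22.9 and 19.1 CPM in WT. It had 30.04, 33.1 and 26.9 CPM in Tak1het and 32.03, 31.8 and 27.7 CPM in Tbk1het Tak1het, in both cases with no overlap with WT. Of all genes, 15.1% did not overlap in Tak1het against WT, where Traf2 was the 1 member of 9. In Tbk1het Tak1het against WT the share was 29.6%, with 3 of 9 members. Traf2 had the smallest p of the 9 members in Tak1het against WT, with a log2 fold change of 0.44 (SE 0.185, edgeR adjusted p = 0.455), and in none of 18 alternatives did it pass (0.221 to 0.915). Its levels were 18.1, 30.1 and 20.8 CPM in Tbk1het, 26.1, 25.1 and 24.4 CPM in Tbk1het Ripk1hom, and 30.6, 22.3 and 25.5 CPM in Tbk1het Tak1het Ripk1het. A processed pseudogene, Gm13433, lies within Traf2 on the opposite strand, and these libraries do not mark the strand.

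Traf1 (ENSMUSG00000026875, chr2:34941750-34961772, minus strand), a TRAF without the RING domain that is induced by NF-kB, was barely detected. Its counts were 8, 18 and 16 in WT, 25, 32 and 30 in Tbk1het, 15, 2 and 44 in Tbk1het Ripk1hom, 0, 9 and 6 in Tak1het, 18, 14 and 21 in Tbk1het Tak1het, and 0, 15 and 44 in Tbk1het Tak1het Ripk1het. Libraries of one genotype thus differed from below the floor of 3 counts to 44 counts. The Tbk1het libraries, at 1.21, 1.83 and 1.99 CPM, were above those of WT, at 0.507, 1.06 and 0.928 CPM. Of all genes, 12.6% did not overlap in this comparison, where Traf1 was the 1 member of 9. With standard errors of 1.14 to 1.23, log2 fold changes between -1.42 and 1.93 did not pass (edgeR adjusted p 0.479 or more).

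The neighbouring genes Birc2 and Birc3 encode cIAP1 and cIAP2, the ligases that ubiquitinate RIPK1. Birc2 (ENSMUSG00000057367, chr9:7818227-7837064, minus strand) had 22.4, 21.8 and 24.3 CPM in WT and 13.8, 10.3 and 17.6 CPM in Tbk1het Tak1het Ripk1het, with no overlap, as for 14.2% of all genes. Its levels were 19.3, 34.0 and 16.1 CPM in Tbk1het, 24.7, 15.5 and 20.2 in Tbk1het Ripk1hom, 22.7, 11.4 and 16.5 in Tak1het and 22.96, 18.8 and 17.6 in Tbk1het Tak1het. Birc2 had the smallest p of the members in Tbk1het Tak1het Ripk1het against WT, with a log2 fold change of -0.71 (SE 0.29), and did not pass (edgeR adjusted p = 0.527, and 0.228 or more in 18 alternatives).

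Birc3 (ENSMUSG00000032000, chr9:7848699-7873186, minus strand), the NF-kB-inducible member of the pair, had 27.7, 23.4 and 31.4 CPM in WT and 29.1, 21.8 and 27.0 in Tbk1het. It had 17.4, 23.6 and 16.1 CPM in Tak1het and 26.03, 29.6 and 31.7 in Tbk1het Tak1het, with no overlap between the last 2, as for 24.6% of all genes. That difference had a log2 fold change of 0.62 (SE 0.279) and did not pass (edgeR adjusted p = 0.289). With Ripk1 D138N, Birc3 had 37.5, 15.3 and 32.5 CPM in Tbk1het Ripk1hom and 44.4, 23.6 and 32.7 in Tbk1het Tak1het Ripk1het. In both of these genotypes the library with the lowest Birc3 was replicate 2, with a mitochondrial share over 1%.

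Xiap (ENSMUSG00000025860, chrX:42059679-42109656, plus strand), which encodes an inhibitor of caspases, ranged from 47.3 to 77.3 CPM. Its 3 libraries of Tbk1het Tak1het Ripk1het, at 47.3, 58.6 and 47.7 CPM, lay below all 3 of Tbk1het Tak1het, at 66.0, 77.3 and 60.9 CPM, and of WT, at 60.8, 58.8 and 77.2 CPM. Of all genes, 24.2% did not overlap in the first of these comparisons and 14.2% in the second. The log2 fold changes were -0.41 (SE 0.153, edgeR adjusted p = 0.188) and -0.36 (adjusted p = 0.553), and neither passed.

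Among partners of these genes in the TNF pathway, the calls were mostly in comparisons of Tbk1het Tak1het. The lists were chosen with earlier results of these data known. With the mitochondrial share as a covariate, calls over all genes went from 1974 to 140 in Tbk1het Tak1het against Tbk1het and from 816 to 211 against WT. Of the 23 calls in these pathway lists against Tbk1het, 2 were then still made, Xaf1 and Cxcl10, and of the 10 against WT 3 were, Xaf1, Cxcl10 and Tbk1; all kept their direction. In Tbk1het Tak1het Ripk1het against Tbk1het Tak1het, all 5 calls were still made. The 7 other TRAF genes had no call in any comparison with edgeR. In Tbk1het Tak1het against Tbk1het, where 14.7% of all genes were called, 4 of 11 NF-kB subunit and inhibitor genes rose: Nfkbid (log2 fold change 1.36), Nfkb2 (0.86), Rela (0.63) and Bcl3 (1.61), and none fell. With the covariate the 4 were not called, at 0.52, 0.49, 0.12 and 0.68 (adjusted p from 0.502 to 0.819). The median log2 fold change of this list was 0.63 against 0.00669 for all genes. Against WT, where 6.07% of all genes were called, edgeR called 0 of the 11, while 10 of 11 had a log2 fold change above 0 and the median was 0.46.

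Of 8 genes of RIPK1 and the death-inducing complex, Ripk1 itself was 1 that rose in Tbk1het Tak1het, from 19.96 ± 3.52 CPM (SD, n = 3) in WT to 58.6 ± 11.3 CPM (log2 fold change 1.55, SE 0.438, edgeR adjusted p = 0.0433). Against Tbk1het, Ripk1 rose by 1.70. Of 12 genes of the linear ubiquitin ligase and its regulators, Rnf31, the catalytic subunit, rose by 0.61 against WT (adjusted p = 0.0412) and by 0.83 against Tbk1het, where Tax1bp1 fell by 0.41. In Tbk1het Tak1het Ripk1het against Tbk1het Tak1het, Rnf31 fell by 0.83 (adjusted p = 0.0143), from 38.5 ± 5.56 to 21.6 ± 1.22 CPM. Of 14 genes of the TAK1, IKK and TBK1 kinase complexes, 2 were called against WT, Chuk and Tbk1, and 3 against Tbk1het, Chuk, Tbkbp1 (1.82) and Tank (-0.53). Chuk, which encodes IKK-alpha, rose by 1.25 against WT (adjusted p = 0.0352) and by 2.07 against Tbk1het, and fell by 1.52 in Tbk1het Tak1het Ripk1het against Tbk1het Tak1het (adjusted p = 0.0222).

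Of the 8 tested among 9 other IAP genes and IAP antagonists, 4 were called in Tbk1het Tak1het against Tbk1het. Xaf1, an interferon-induced antagonist of XIAP, rose by 1.64 and Htra2, a mitochondrial protease that binds IAPs, by 0.88. Birc5, which encodes the mitotic protein survivin, fell by 3.92, and Naip2, an inflammasome sensor, by 0.67. Against WT, Xaf1 rose from 13.2 ± 1.83 to 38.9 ± 4.40 CPM (log2 fold change 1.56, edgeR adjusted p = 0.00133) and Birc5 fell from 17.6 ± 4.33 to 2.30 ± 1.30 CPM (-2.90, adjusted p = 0.00871). Both differences were in the other direction in Tbk1het Tak1het Ripk1het against Tbk1het Tak1het, where Xaf1 fell by 1.56 and Birc5 rose by 2.98.

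Of 12 tested genes that process or destabilise TNF or encode related ligands, Adam17, the protease that sheds TNF, fell from 433.8 ± 12.3 CPM in WT to 284.9 ± 32.7 CPM in Tbk1het Tak1het (log2 fold change -0.61, edgeR adjusted p = 0.0133). Zfp36, which encodes a protein that destabilises Tnf mRNA, rose from 53.0 ± 14.4 to 94.6 ± 4.59 CPM (0.84, adjusted p = 0.0437). Against Tbk1het the same 2 genes were called in the same directions and Zfp36l1, a relative of Zfp36, rose by 1.20. Of 12 tested other receptors of the TNF family, none was called with edgeR against WT, and against Tbk1het Ltbr rose (0.47) while Tnfrsf26 and Tnfrsf23 fell (-1.66 and -1.79). Of 21 tested TNF and NF-kB response genes, Cxcl10 and Gadd45b rose in Tbk1het Tak1het against WT (2.20 and 2.04) and the other 19 were not called. Cxcl10 had 16.8 ± 1.72 CPM there, 3.67 ± 0.79 in WT and 3.58 ± 0.683 in Tbk1het Tak1het Ripk1het. Of the 73 calls made for genes of these lists and of the marker lists in comparisons with a fold change, all kept their direction with DESeq2 size factors and with total counts as the scaling.

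The genes whose levels were most like a member's over the 18 libraries were ranked by Pearson's r of log2 CPM among the 8704 genes whose mean level reached 5 CPM, as a description. The points share libraries, scaling and the differences in mitochondrial share. For Tnf they were Sh3bp2 (r = 0.942), Abhd12 (0.936) and Mtss1 (0.93). For Birc3 they were Rrad (0.851), Neurl3 (0.819) and Ptges (0.804). The values were lower for Birc2, with Zmym5 (0.762), Trmt11 (0.723) and Cstf2t (0.721), and for Traf1, with Ipo11 (0.739), Tmem62 (0.714) and Mettl4 (0.687).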

How the data were processed

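The deposited values are unnormalised read counts for each gene, which the authors produced with STAR, featureCounts and mm10, per the submitters' processing notes; the labels' protocol text names RSEM instead. Versions and strand setting are not given in the sources used here. Libraries were made per the labels' protocols by Smart-seq2 from 1 ng of RNA with 12 PCR cycles, and sequenced as paired reads of 50 bases, without molecular identifiers, so p-values and floors do not cover amplification error. The 50686 identifiers were matched to GENCODE M21 (50462 with a symbol; the rest held at most 0.00437% of a library's counts).

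Genes were filtered with filterByExpr, scaled with TMM (trimmed mean of M values) and tested in 1 fit of all 18 libraries with the quasi-likelihood test of edgeR 4.0.16 (R 4.3.3), adjusted by Benjamini-Hochberg over 13447 genes, with calls at an adjusted p under 0.05. Every adjusted p is from edgeR unless another tool is named, and from this fit unless another fit or setting is named. Ranges over alternatives also take in the values of DESeq2 and limma-voom. The words rose and fell mark called genes only. CPM uses the TMM-scaled total, and per-kilobase levels divide it by the gene's summed exon length. Alternatives were DESeq2 1.42.0, limma-voom (limma 3.58.1), other scalings and filters, fits on fewer libraries, a replicate block, covariates for the mitochondrial share and for Y-linked genes, and leaving out each library. With no filter on low counts the adjusted p of Tnf across the genotypes was 1.54e-10, against 0.000908 or more in every other setting. The same fit gave the lowest adjusted p in the ranges for the interaction and for both Ripk1 D138N comparisons, so the low end of a range can rest on that fit. Fits within each mitochondrial set, and the difference between the Ripk1 D138N comparisons, were added after the data were seen. No 2 libraries held identical counts. The fit was tested on simulated data.

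The members and gene lists were chosen with earlier results of these data known. Fold changes were given for called members and for the member with the smallest p of a comparison, for up to 4 called genes of a list, and for Tbk1, Map3k7 and Ripk1. Fold changes of Tnf in every comparison, of Tnfrsf1a and Birc3, of Xiap, and the marker genes were added after their values were seen. Promoter sequences are from RefSeq. Results for 2 genes of the lists are not reported here.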

Additional observations from a re-analysis of the deposited data

Results flagged for a closer look

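The difference of Tnf between genotypes with and without Ripk1 D138N went in opposite directions in 2 backgrounds, with neither difference called. The log2 fold change was 1.21 in Tbk1het Ripk1hom against Tbk1het and -1.06 in Tbk1het Tak1het Ripk1het against Tbk1het Tak1het. Their difference was 2.27 (SE 0.56, edgeR adjusted p = 0.0325). Without Tbk1het replicate 2 it was 3.12. It was drawn to attention because the difference itself passed its test, whereas neither single comparison did. The difference was added after the data were seen, and its call was made in 10 of 22 alternatives. It holds within it the difference between Tbk1het Tak1het and Tbk1het, which was 1.95 by itself. Against WT, Tnf differed by 0.61 in Tbk1het Ripk1hom and by 0.29 in Tbk1het Tak1het Ripk1het (edgeR adjusted p = 0.948 and 0.944). The number of D138N alleles differs between the backgrounds, and 5 of the 6 libraries with such alleles had Tbk1 near the WT level. The mitochondrial share also differed, being 0.449% to 1.57% in Tbk1het Ripk1hom against 1.82% to 2.20% in Tbk1het, and 0.370% to 1.10% in Tbk1het Tak1het Ripk1het against 0.367% to 0.512% in Tbk1het Tak1het, and with it as a covariate the difference was 1.41 (adjusted p = 0.463).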

How the results depend on the processing

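The number of members called depended on the settings mostly through Tnf. Across the 6 genotypes 1 member was called; it was 0 with a replicate block, 0 with the mitochondrial share as a covariate, 2 (Tnf and Birc3) with Y-linked genes as a covariate, and 0 to 1 when libraries were left out. In Tbk1het Tak1het against Tbk1het the count of 1 became 3 with total counts as the scaling and 0 with the mitochondrial covariate, and was 1 to 2 when libraries were left out (2, with Traf2, without Tbk1het replicate 2). In Tbk1het Tak1het against WT the count of 0 became 1 (Tnf) with DESeq2, limma-voom, no filter on low counts, a mean of at least 5 CPM, the Y-linked covariate, only the libraries compared, or only those with a mitochondrial share under 1%, and 2 with total counts. Against Tak1het it became 1 with no filter, with the Y-linked covariate (Birc3) and with only the libraries compared. In Tbk1het Tak1het Ripk1het against Tbk1het Tak1het it became 1 with no filter and with only the libraries compared. In Tbk1het Ripk1hom against Tbk1het and for the interaction it became 1 with no filter, and was 0 to 1 when libraries were left out; in Tbk1het against WT it was 0 to 1 (Tnf, without Tbk1het replicate 2). For the difference between the D138N comparisons the count of 1 became 0 with the mitochondrial covariate, the Y-linked covariate and only the libraries compared, and was 0 to 1 when libraries were left out (1 only without Tbk1het replicate 2, Tbk1het Ripk1hom replicate 2 or Tbk1het Tak1het Ripk1het replicate 1). Tnf in Tbk1het Ripk1hom against WT, not called, reversed to -0.2162 without libraries of near-WT Tbk1 and to -0.1103 among libraries with a share over 1%; the cause was not tested. Same-numbered libraries of different genotypes did not deviate together (45 pairs, r from -0.194 to 0.141, 8 of 18 libraries closest to their own number), so the numbers were not taken as pairs; the replicate block changed no other count of members. Removing the libraries with Tbk1 near WT left no Tbk1het Tak1het Ripk1het library, so no value was obtained there. With total counts as the scaling the median log2 fold change of all genes was 0.1925 in Tbk1het Tak1het against WT, where calls were 639 higher and 282 lower in place of 291 and 525, and 0.2374 against Tbk1het, with 1683 and 617 in place of 866 and 1108. Traf1 had 0 to 44 counts per library; whether depth or spread between libraries limits its tests was not tested.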

Other observations

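The ratio of Birc3 to Birc2, taken within each library per kilobase of exon and so free of the scaling between libraries, was chosen once its values were known. It was 1.13, 0.981 and 1.19 in WT and 2.95, 2.09 and 1.70 in Tbk1het Tak1het Ripk1het, with no overlap between these genotypes. It was 1.38, 0.585 and 1.53 in Tbk1het, 1.39, 0.906 and 1.47 in Tbk1het Ripk1hom, 0.701, 1.88 and 0.888 in Tak1het, and 1.04, 1.44 and 1.65 in Tbk1het Tak1het. The genotypes were not tested on this ratio. In the edgeR fit of all 18 libraries without covariates neither gene was called in any comparison; with Y-linked genes as a covariate Birc3 was called across the 6 genotypes and in Tbk1het Tak1het against Tak1het.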
